A study of Mus musculus with 12 samples.

Results

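Small RNA libraries of epididymal sperm from mice on a high-fat diet (HFD) were compared with those of mice on a control diet (CD). They are 6 of the 12 libraries of the study, 3 for each diet. All mice were C57BL6/J males. The CD was AIN-93G, with 16% of its energy from fat by the labels, and the HFD was D12492, for which the labels state 69%, while the methods of the study give a lower share. Both diets started at 4 weeks of age and lasted 7 weeks by the labels, while a legend of the study gives a later starting age. Each library was made from the pooled sperm of 3 mice, so the spread between libraries is a spread between pools, and that between animals was not measured. The libraries of a diet are called CD 1 to CD 3 and HFD 1 to HFD 3, and values of a diet are given in that order. The members are all RNA subclasses counted in these libraries: 1329 subclasses had a read, and 734 reached 10 reads in 3 libraries or more and were tested. The tested members comprised 449 miRNA hairpins, 184 fragments of cytosolic tRNAs, 64 fragments of mitochondrial tRNAs, 8 rRNAs, 3 tRNA precursors, 2 Y RNAs, 23 other Ensembl and Rfam classes and piRNAs as a single group. The question was what the totals of the classes hide, namely the single rRNAs, the mitochondrial tRNAs, the fragments that end in CCA and the miRNA families.

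As background, sperm cells carry little cytoplasm and their RNA is rich in fragments of tRNAs and rRNAs, beside miRNAs and piRNAs. A tRNA gets its terminal CCA, to which the amino acid is attached, from an enzyme after transcription, and the CCA is not encoded in mouse tRNA genes. A 3′ fragment that ends in CCA therefore carries the complete 3′ end of a finished tRNA, and a 3′ fragment without it lacks that end. Mitochondria transcribe their own set of tRNAs and the 12S and 16S rRNAs, whereas 18S, 5.8S and 28S rRNA are cut from the 45S precursor in the nucleolus. miRNAs pair with their targets mainly through the seed, bases 2 to 8 from the 5′ end.

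The libraries held 31710445 to 41532413 clean reads, of which 16.5% to 32.9% matched rRNA, so levels are given as RPM, reads scaled to 1000000 clean reads without rRNA, unless another denominator is named. The label was checked with miRNA marker lists, summed in ppm, reads scaled to 1000000 miRNA reads. The 16 miRNAs of sperm and testis germ cells came to 3797 to 11129 ppm in CD and 3819 to 5579 ppm in HFD sperm. The 5 miRNAs of epithelium, the mir-200 family, which are also made by the epididymis, came to 9281 to 10573 ppm in CD and 8946 to 14327 ppm in HFD sperm. The muscle list came to 33629 to 50990 ppm in CD and 30653 to 56170 ppm in HFD sperm, with mir-206 at 0 in at least 1 library. Nearly all of this sum was mir-143, at 33223 to 50518 ppm in CD and 30211 to 55754 ppm in HFD sperm. mir-133a-1 lay at 15.7 to 23.4 ppm and mir-1a-1 at 0.43 to 1.21 ppm, so the sum does not measure muscle RNA. In TM4 cells mir-143 alone came to 48544 to 127843 ppm. The red blood cell list came to 26237 to 34490 ppm in CD and 25239 to 50595 ppm in HFD sperm, and the white blood cell list to 6604 to 9124 ppm in CD and 8036 to 8504 ppm in HFD sperm. The ranges of all 5 lists overlapped between the diets. In the TM4 Sertoli cell line of the same study, the lists came in the order above to 959.7 to 2067, 1.28 to 2.38, 49717 to 129041, 1762 to 2857 and 2332 to 2632 ppm. CD 2 had the highest sum of the germ cell list and HFD 1 that of the red blood cell list, and both libraries stood apart in several results below. The part of other cells in the differences was not tested, and in bulk RNA fewer cells of a type and less RNA per cell cannot be told apart.

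None of the 734 subclasses passed an adjusted p of 0.05 in edgeR's quasi-likelihood test, which is 0% of those tested, and 81 (11%) had an unadjusted p under 0.05. DESeq2 on the same library sizes called 4, the miRNAs mir-122, mir-468, mir-7217 and mir-7242. The looser thresholds used below were p below 0.05 before adjustment together with a change of more than 1.5-fold, and there 55 subclasses were higher on the HFD (7.49%) and 20 were lower (2.72%). TMM scaling, which centres the fold changes, gave 15 higher and 27 lower, and all clean reads as library size gave 23 and 25. Single libraries moved these counts. The number higher was 33 without CD 1, 100 without CD 2, 23 without CD 3 and 87 without HFD 1, and the number lower was 10 without CD 2 and 12 without HFD 3. Without CD 2, 7 subclasses passed an adjusted p of 0.05. The number with an unadjusted p under 0.05 was 48 without CD 3, 141 without HFD 1 and 52 without HFD 2. The median log2 fold change of all tested subclasses was 0.24 on the main scale and 0.02 with TMM, so differences are read against these medians. By kind, the median was 0.19 for miRNAs, 0.32 for mitochondrial tRNA fragments, 0.36 for rRNAs and 0.44 for cytosolic tRNA fragments. All 20 subclasses lower at those thresholds were miRNAs, against 13 miRNAs that were higher. The higher ones also included 31 cytosolic tRNA fragments, 10 mitochondrial tRNA fragments and 1 rRNA. The cytosolic ones were 13 of 50 internal fragments, 8 of 42 3′ ends without CCA, 7 of 43 5′ fragments and 3 of 49 CCA ends. The total of the mature tRNAs was not higher in its mean, with 154000, 107544 and 165866 RPM in CD sperm and 135181, 141234 and 129681 RPM in HFD sperm (means 142470 ± 30823 and 135365 ± 5779 RPM, SD, n = 3 each, exact permutation p = 0.8). The 5′ fragments of cytosolic tRNAs, most of that total, gave 118659, 75060 and 132312 RPM in CD sperm and 98308, 96509 and 82655 RPM in HFD sperm, also with overlap (exact permutation p = 0.5). The RPM of the 2 diets did not overlap for 115 subclasses that were higher on the HFD (15.7%) and for 8 that were lower (1.09%). Among the 50 internal cytosolic fragments, 18 were higher without overlap and 0 lower. With a library left out fewer values have to stay apart, and the number higher without overlap was 141, 248 and 129 without CD 1, CD 2 and CD 3 and 249, 191 and 157 without HFD 1, HFD 2 and HFD 3. The number lower was then 28, 16 and 20 without CD 1, CD 2 and CD 3 and 52, 11 and 15 without HFD 1, HFD 2 and HFD 3.

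**Figure D1:**
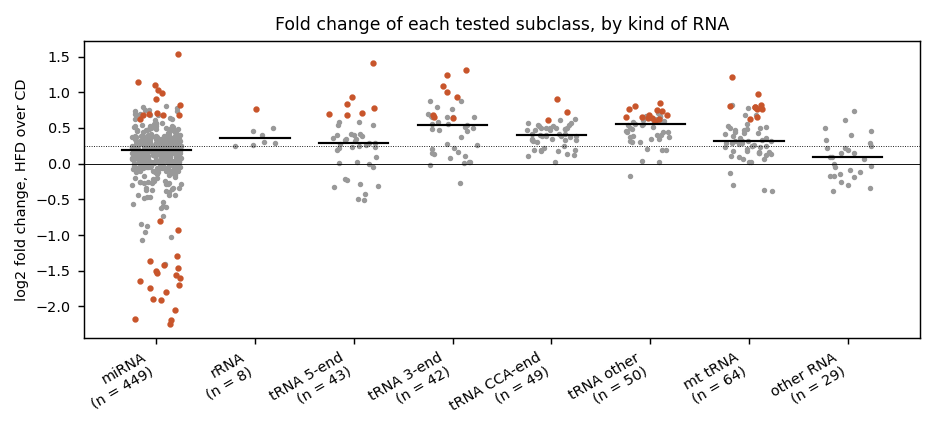
Log2 fold change (vertical axis) of HFD over CD for each of the 734 tested subclasses, by kind of RNA. Orange points passed the looser thresholds, black bars are medians and the dotted line is the median of all, 0.24; the orange points below 0 all lie among the miRNAs.

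The mitochondrial tRNAs on which the results turn are shown first, as DNA letters of the gene from the GENCODE M39 transcripts with the anticodon in capitals. mt-Te and mt-Tc are shown because most of their 3′ fragments lacked CCA, mt-Tv and mt-Tw because most carried it, and mt-Ts2 because it gave most of the 5′ fragments. None of the 5 genes ends in CCA.
mt-Te (Glu): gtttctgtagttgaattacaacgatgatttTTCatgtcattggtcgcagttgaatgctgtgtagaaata
mt-Tc (Cys): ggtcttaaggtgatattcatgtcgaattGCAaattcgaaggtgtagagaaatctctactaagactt
mt-Tv (Val): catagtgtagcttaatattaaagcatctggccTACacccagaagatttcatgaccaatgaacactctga
mt-Tw (Trp): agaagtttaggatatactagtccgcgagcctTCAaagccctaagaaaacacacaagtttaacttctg
mt-Ts2 (Ser-GCT): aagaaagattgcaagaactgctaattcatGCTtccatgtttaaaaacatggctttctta

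Mitochondrial tRNAs as a class gave 2621, 2878 and 2465 RPM in CD sperm and 2548, 3280 and 3441 RPM in HFD sperm. The diets overlapped, with HFD 1 inside the CD range, and the mean was 2654 ± 209 RPM for the CD libraries and 3090 ± 476 RPM for the HFD libraries (SD, n = 3 each, exact permutation p = 0.3). Below that total, the mean RPM was higher on the HFD for 21 of the 22 mitochondrial tRNAs, and the mean share of the mitochondrial tRNA reads for 16 of them. Most subclasses of any kind leaned the same way, with a positive log2 fold change for 80.2% of all those tested. For 7 of the 22 the RPM did not overlap, beside 15.7% of all subclasses that were higher without overlap. The 22 are sums over fragments, whereas the subclasses are single fragments. Counted as fragments, 14 of the 64 tested were higher and 1 lower without overlap. Each of the 7 had an exact permutation p of 0.1, the smallest that 3 libraries against 3 allow, and an adjusted p of 0.314 over the 22. These 7 were Trp-TCA, Ser-TGA, Lys-TTT, Cys-GCA, Asn-GTT, Ile-GAT and Tyr-GTA.

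Trp-TCA, the tRNA for tryptophan, gave 141, 197 and 133 RPM in CD sperm and 269, 202 and 271 RPM in HFD sperm. HFD 1 and HFD 3 were high, and the lowest HFD library lay just above the highest CD library, CD 2. Ser-TGA, which reads the UCN codons of serine, gave 75.9, 84.8 and 57.9 RPM in CD sperm and 86.2, 98.8 and 119.6 RPM in HFD sperm. Lys-TTT, the tRNA for lysine, gave 51.5, 57.4 and 51.9 RPM in CD sperm and 85.3, 62.4 and 66.0 RPM in HFD sperm, with HFD 1 above HFD 2 and HFD 3. Cys-GCA, the tRNA for cysteine, gave 37.0, 31.7 and 30.2 RPM in CD sperm and 41.8, 49.1 and 51.4 RPM in HFD sperm. As shares of the mitochondrial tRNA reads, which do not move with the class total, only Cys-GCA and Ser-TGA of the 22 stayed apart. Cys-GCA took 1.41, 1.101 and 1.22% in CD sperm and 1.64, 1.497 and 1.49% in HFD sperm. Ser-TGA took 2.90, 2.95 and 2.35% in CD sperm and 3.38, 3.01 and 3.47% in HFD sperm, and both had an adjusted p of 1 over the 22.

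The most abundant mitochondrial tRNAs did not separate the diets. Of the mitochondrial tRNA reads, Val-TAC took 22.6, 24.8 and 25.7% in CD sperm and 23.6, 23.4 and 24.3% in HFD sperm. Ser-GCT, the serine tRNA that lacks the D arm, took 19.3, 21.7 and 22.6% in CD sperm and 14.8, 24.7 and 21.0% in HFD sperm. The low value of Ser-GCT was that of HFD 1, and the other 2 HFD libraries lay within or above the CD range. By fragment, the 5 mitochondrial fragments with most reads were the internal ones of Val-TAC, Gly-TCC, His-GTG and Glu-TTC and the 5′ ones of Ser-GCT. Their log2 fold changes were 0.21 for Val-TAC, 0.16 for Ser-GCT, -0.13 for Gly-TCC, 0.15 for His-GTG and 0.32 for Glu-TTC, each with overlapping diets. Under TMM the signs for Val-TAC, Ser-GCT and His-GTG turned, and 44 of the 64 tested mitochondrial fragments were positive in place of 60. The 5 mitochondrial fragments with the smallest p were the 3′ ends without CCA of Ser-TGA and Gln-TTG, the internal fragments of Trp-TCA and Tyr-GTA, and the CCA ends of Lys-TTT. The internal fragments of Trp-TCA had 86.0, 117 and 72.0 RPM in CD sperm and 166, 130.5 and 179 RPM in HFD sperm (log2 fold change 0.79, SE 0.26, adjusted p = 0.368 in edgeR). The 3′ ends of Ser-TGA had 0.665, 0.759 and 0.469 RPM in CD sperm and 2.08, 0.868 and 1.39 RPM in HFD sperm, the lowest level of the 5 (log2 fold change 1.21, SE 0.38, adjusted p = 0.368). The 3′ ends of Gln-TTG (log2 fold change 0.97, SE 0.34, adjusted p = 0.368) overlapped, whereas the internal fragments of Tyr-GTA (log2 fold change 0.76, SE 0.30, adjusted p = 0.419) did not. Of the 64 mitochondrial fragments tested, 10 were higher and 0 lower at the looser thresholds, against the background of 7.49% higher and 2.72% lower in all subclasses. The number higher was 3 under TMM, where 1 was lower. It was 5 with all clean reads, 2 with the reads of the class and 3 with DESeq2's own size factors as scaling, 5 of 37 tested with at least 100 reads, 5 without CD 1 and 3 without CD 3.

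**Figure D2:**
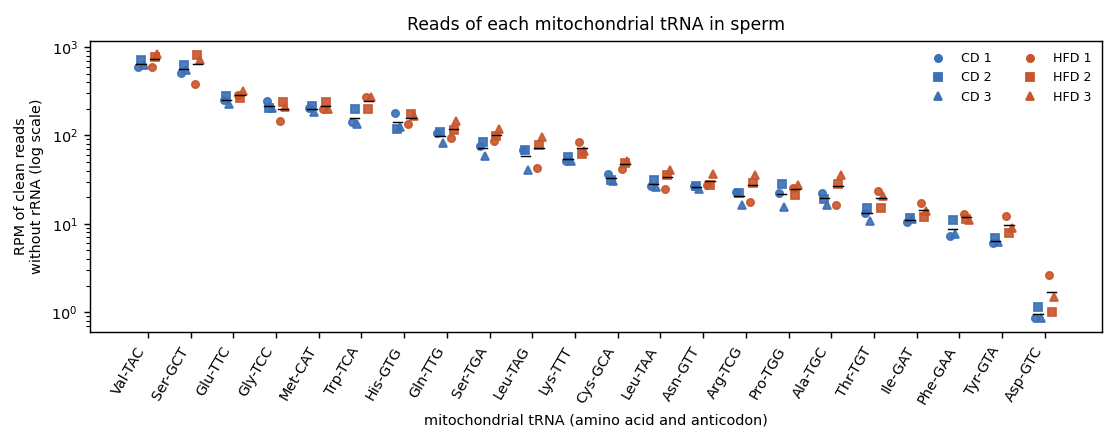
RPM on a log scale (vertical axis) of each of the 22 mitochondrial tRNAs (horizontal axis, ordered by mean) in the 3 CD (blue) and 3 HFD (orange) libraries, with bars at the means. Val-TAC is the most abundant, at 646 RPM in CD and 735 RPM in HFD sperm, and HFD 1 is the lowest library for Ser-GCT.

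The 3′ fragments of mitochondrial tRNAs showed a difference in their total that was not found in single tRNAs. Of the 3′ fragments, those that end in CCA made up 61.7, 61.6 and 62.3% in CD sperm and 65.3, 65.1 and 63.4% in HFD sperm. The diets did not overlap, and the means were 61.9 ± 0.40% and 64.6 ± 1.05% (SD, n = 3 each, exact permutation p = 0.1, adjusted p = 0.2 over the mitochondrial and cytosolic totals). Among the 11 mitochondrial tRNAs with at least 50 such reads in every sperm library, the diets overlapped for all 11. The share ranged widely between tRNAs. It was low for Glu-TTC, with 8.13, 9.32 and 8.71% in CD sperm and 12.9, 8.45 and 8.37% in HFD sperm, and for Cys-GCA, with 8.50, 10.4 and 8.45% in CD sperm and 11.6, 10.8 and 7.31% in HFD sperm. It was high for Trp-TCA, with 95.6, 96.9 and 96.9% in CD sperm and 96.6, 96.2 and 95.0% in HFD sperm, and for Val-TAC, with 93.4, 91.2 and 93.1% in CD sperm and 94.2, 93.0 and 91.3% in HFD sperm. Glu-TTC held 75.1% of all mitochondrial 3′ fragments without CCA, and Val-TAC and Trp-TCA held 50.2% and 27.4% of those with it. Of all 3′ fragments, Glu-TTC gave 32.1, 32.7 and 32.1% in CD sperm and 29.9, 27.9 and 28.3% in HFD sperm, a lower part in each HFD library than in any CD library. Among the 11, the part of Gly-TCC was also lower without overlap, and those of Lys-TTT and Cys-GCA were higher without overlap. Cys-GCA, also low in its CCA share, thus moved opposite to Glu-TTC. It gave 2.083, 1.497 and 1.947% in CD sperm and 3.019, 2.102 and 2.138% in HFD sperm. When the mix of the 11 tRNAs was held at the mean of the 6 libraries, a calculation added after the data were seen, the CCA share was 63.1, 62.7 and 63.3% in CD sperm and 65.5, 62.7 and 61.3% in HFD sperm. The means were then 63.0% and 63.1%, with overlapping diets (exact permutation p = 0.9). By RPM, the mitochondrial CCA ends came to 219, 267 and 246 RPM in CD sperm and 327, 285 and 275 RPM in HFD sperm, without overlap (adjusted p = 0.4 over 4 kinds of fragment). The 3′ ends without CCA came to 136, 167 and 149 RPM in CD sperm and 174, 153 and 159 RPM in HFD sperm, with overlap. CCA-end reads of mitochondrial tRNAs matched the genome in only 15.8% to 26.1% of cases, so reads with and without a genome match were added. With the genome-matched reads alone, the log2 ratio of the CCA share was 0.43 in place of 0.06.

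In cytosolic tRNAs the share of 3′ fragments that end in CCA was 65.6, 50.9 and 68.3% in CD sperm and 60.3, 39.4 and 56.1% in HFD sperm. Its mean was lower on the HFD, 51.9 ± 11.1% against 61.6 ± 9.36% (SD, n = 3 each), but CD 2 lay below 2 of the HFD libraries and the diets overlapped (exact permutation p = 0.3). The share was again far apart between tRNAs. It was above 90% on the CD for 27 of the 47 cytosolic tRNAs with at least 50 such reads in every library, for example 98.3, 97.9 and 98.1% in CD sperm and 97.9, 98.0 and 98.0% in HFD sperm for Ala-AGC. The fragments without CCA came from few tRNAs: Pro-AGG, Pro-TGG, Pro-CGG, Gln-CTG, Gln-TTG, Thr-TGT and Trp-CCA gave 90.1% of them. The 3 proline tRNAs had nearly the same CCA shares, and reads that match several tRNAs were divided among them. CD 2 was the lowest CD library and HFD 2 the lowest HFD library for the proline, glutamine and threonine tRNAs below. For Pro-AGG the share was 18.2, 10.1 and 22.0% in CD sperm and 12.4, 9.73 and 16.2% in HFD sperm. For Gln-TTG it was 25.5, 15.2 and 25.9% in CD sperm and 17.4, 7.56 and 13.7% in HFD sperm, and for Gln-CTG 49.2, 34.1 and 46.3% in CD sperm and 39.5, 19.6 and 31.9% in HFD sperm. For Thr-TGT it was 27.2, 13.1 and 29.7% in CD sperm and 17.2, 8.95 and 17.96% in HFD sperm. None of these 4 separated the diets. Of the 47, 3 had a higher share on the HFD without overlap (Gly-ACC, Val-AAC and Val-CAC) and 3 a lower one (Glu-CTC, Ser-TGA and Thr-AGT), all named after their values were seen. The shares of the first 3 were nearly the same in every library, so they are not 3 separate measurements. With the mix of the 47 tRNAs held fixed, the share was 61.0, 54.9 and 61.5% in CD sperm and 56.9, 52.1 and 57.0% in HFD sperm, and the diets still overlapped (exact permutation p = 0.3).

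**Figure D3:**
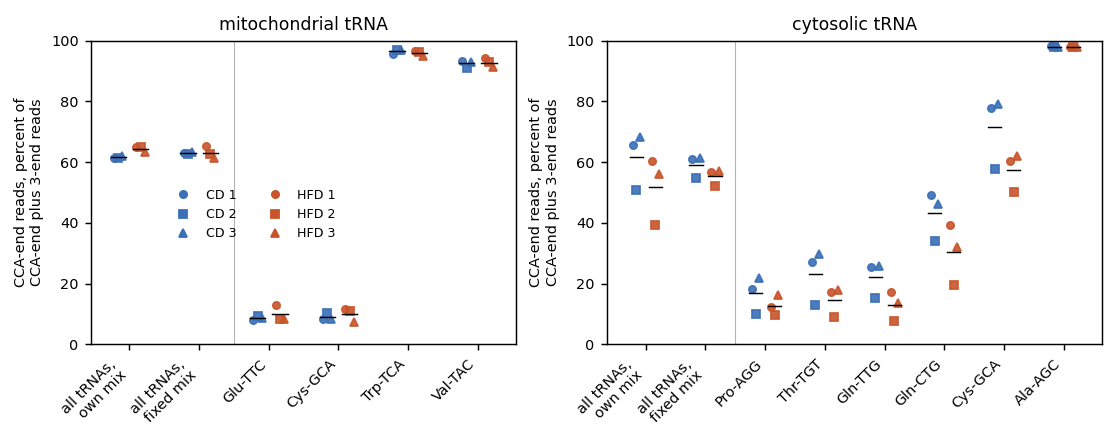
Percentage of 3′ fragments that end in CCA (vertical axis, 0 to 100%) in the CD (blue) and HFD (orange) libraries, for all mitochondrial (left) or cytosolic (right) tRNAs with their own mix, with the mix held at the mean of the 6 libraries, and for single tRNAs; bars are means. The gap of the mitochondrial total (61.7% against 64.5% over the 11 tRNAs) is 63.0% against 63.1% with the fixed mix.

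By RPM, the cytosolic CCA ends were 1661, 1864 and 1343 RPM in CD sperm and 2762, 1604 and 1902 RPM in HFD sperm, and the 3′ ends without CCA were 872, 1798 and 623 RPM in CD sperm and 1816, 2465 and 1489 RPM in HFD sperm. Both overlapped. The 3′ ends without CCA of the glutamine tRNAs, named after their values were seen, did not. They were not alone: of the 42 cytosolic 3′ ends without CCA tested, 40 had a positive log2 fold change. Of the 42, 9 were higher without overlap and 8 at the looser thresholds, beside 15.7% and 7.49% of all subclasses. Gln-CTG had 101, 186 and 74.5 RPM in CD sperm and 210.4, 446 and 202 RPM in HFD sperm (log2 fold change 1.25, SE 0.40, adjusted p = 0.368), and Gln-TTG had 71.4, 132 and 44.7 RPM in CD sperm and 163, 308 and 144 RPM in HFD sperm (log2 fold change 1.31, SE 0.42, adjusted p = 0.368). Without the filter on low counts, edgeR's adjusted p was 0.00362 for Gln-CTG and 0.00237 for Gln-TTG. Without CD 2 both had an adjusted p of 0.0360, with log2 fold changes of 1.70 and 1.82, and without HFD 2 these were 0.77 and 0.89. Of the 49 cytosolic CCA ends tested, 49 had a positive log2 fold change on the main scale, 45 with all clean reads as library size and 39 under TMM. Over all subclasses, 80.2%, 66.1% and 52.5% were positive on these scales. Without HFD 1, 32 of the 49 were positive, with a median of 0.14. The median with all libraries was 0.41 on the main scale and 0.18 under TMM, and 3 of the 49 were higher at the looser thresholds, a share no larger than the 7.49% of all subclasses. Those 3 were Tyr-GTA, with 18.6, 21.6 and 14.98 RPM in CD sperm and 37.1, 24.1 and 29.4 RPM in HFD sperm (log2 fold change 0.72, SE 0.26, adjusted p = 0.368), SeC-TCA, the selenocysteine tRNA (log2 fold change 0.90, SE 0.33, adjusted p = 0.368), and His-GTG (log2 fold change 0.61, SE 0.27, adjusted p = 0.438). Of the 16 mitochondrial CCA ends tested, those of Lys-TTT had 9.79, 12.5 and 8.99 RPM in CD sperm and 24.99, 15.6 and 14.7 RPM in HFD sperm (log2 fold change 0.83, SE 0.28, adjusted p = 0.368), and those of Thr-TGT were similar in size (log2 fold change 0.79, SE 0.32, adjusted p = 0.438). HFD 1 was the highest library for each of these 5. The number of cytosolic CCA ends past the thresholds was 0 without CD 3 and without HFD 1, 6 without CD 2 and 9 without HFD 2, and 1 under TMM. The CCA ends with most reads, mitochondrial Val-TAC and cytosolic Ser-GCT, Ala-TGC, Ala-AGC and Gln-CTG, overlapped, with log2 fold changes from 0.12 to 0.47. Under TMM the log2 fold changes of mitochondrial Val-TAC, Ala-TGC and Ala-AGC were negative. As a share of the mature tRNA reads, the cytosolic CCA ends together came to 1.08, 1.73 and 0.810% in CD sperm and 2.04, 1.14 and 1.47% in HFD sperm (exact permutation p = 0.4).

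rRNA reads as a class came to 328367, 337553 and 197779 RPM in CD sperm and 491397, 439221 and 328750 RPM in HFD sperm, with CD 3 far below the other libraries and HFD 3 inside the CD range (exact permutation p = 0.2, adjusted p = 0.48 over 8 class totals). All 8 rRNAs had a higher mean RPM on the HFD, also under TMM and with all clean reads as library size, whereas 7 of the 8 had a negative log2 fold change relative to the rRNA reads. Over all subclasses, 80.2% were positive on the main scale. The RPM of 28S and 16S, 2 of the 8, did not overlap, beside 15.7% of all subclasses that were higher without overlap. The 28S rRNA, the large-subunit rRNA of cytosolic ribosomes, gave 198332, 201094 and 121705 RPM in CD sperm and 269406, 260766 and 205553 RPM in HFD sperm. HFD 3 lay just above CD 2 (log2 fold change 0.50, SE 0.22, adjusted p = 0.438 in edgeR). The 16S rRNA, the large-subunit rRNA of mitochondrial ribosomes, gave 5641, 6453 and 5834 RPM in CD sperm and 7602, 6647 and 7253 RPM in HFD sperm (log2 fold change 0.26, SE 0.17, adjusted p = 0.569). The 12S rRNA, its small-subunit partner, gave 141, 137 and 75.5 RPM in CD sperm and 84.0, 157 and 178 RPM in HFD sperm, with HFD 1 within the CD range. The 18S rRNA, the cytosolic small-subunit rRNA, had the largest log2 fold change of the 8 and was the only one past the looser thresholds (log2 fold change 0.76, SE 0.30, adjusted p = 0.438), 1 of the 8 beside 7.49% of all subclasses, yet its RPM overlapped, at 80004, 79013 and 42963 RPM in CD sperm and 157180, 111535 and 73271 RPM in HFD sperm. Its adjusted p was 0.0353 without the filter on low counts. No rRNA passed the looser thresholds under TMM, with rRNA reads as library size, with DESeq2's own size factors, or without CD 3, HFD 1 or HFD 2, whereas 2 did without CD 1, 5 without CD 2 and 3 without HFD 3. The log2 fold change of 18S lay between 0.46 (without HFD 1) and 1.00 (without HFD 3) with a library left out.

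In the mix of rRNAs, no rRNA separated the diets. As a share of rRNA reads, 28S took 60.4, 59.6 and 61.5% in CD sperm and 54.8, 59.4 and 62.5% in HFD sperm. 18S took 24.4, 23.4 and 21.7% in CD sperm and 32.0, 25.4 and 22.3% in HFD sperm. HFD 1 stood apart in both, with the lowest 28S and the highest 18S share, and the other 2 HFD libraries were closer to the CD range for 18S. The ratio of 18S to 28S reads was 0.403, 0.393 and 0.353 in CD sperm and 0.583, 0.428 and 0.356 in HFD sperm. The 5.8S rRNA took 4.63, 5.34 and 4.40% in CD sperm and 3.82, 4.58 and 3.93% in HFD sperm. The 5S rRNA, which is made outside the nucleolus, took 4.504, 5.13 and 4.63% in CD sperm and 3.98, 4.56 and 4.60% in HFD sperm, and the 45S precursor took 4.18, 4.32 and 4.42% in CD sperm and 3.63, 4.40 and 4.12% in HFD sperm. HFD 1 was the lowest library for each of these 3. The 16S share, unlike its RPM, overlapped at 1.72, 1.91 and 2.95% in CD sperm and 1.55, 1.51 and 2.21% in HFD sperm, with CD 3, the library with least rRNA, highest. The 4.5S rRNA was at or below 0.304% and the 12S rRNA at or below 0.0542% in all 6 libraries. The smallest exact p among the 8 shares was 0.2 (5.8S, adjusted p = 0.686). Genome matching bears on this mix: 96.0% to 97.0% of 18S reads but only 33.2% to 38.2% of 28S and 1.28% to 2.16% of 5.8S reads matched the genome, and all were counted here.

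**Figure D4:**
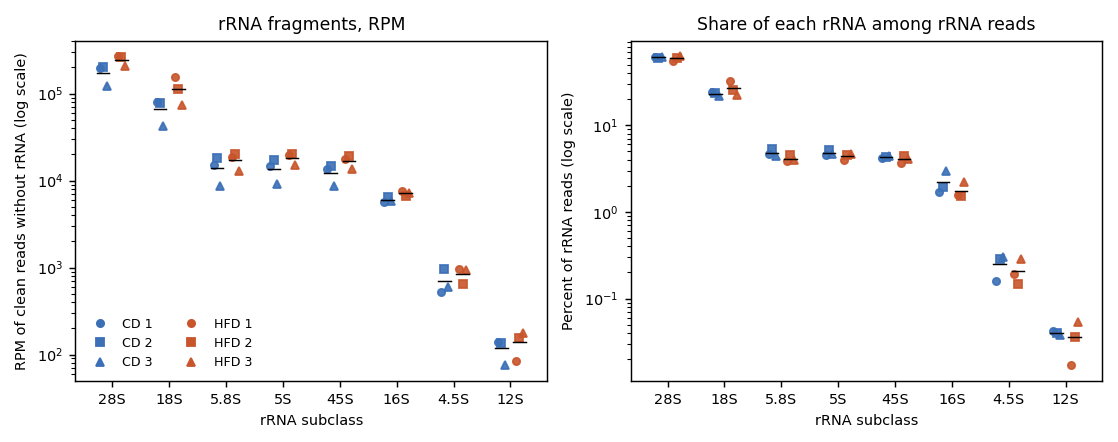
RPM (left) and percentage of rRNA reads (right), both on log scales, for each rRNA (horizontal axis) in the CD (blue) and HFD (orange) libraries, with bars at the means. The mean RPM of 28S is 173710 on the CD and 245242 on the HFD, while its share is 60.5% and 58.9%.

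Of the miRNA families, the mir-10/mir-99/mir-125 group took most miRNA reads and was the only one of 24 whose share did not overlap between the diets (4.17% of the families lower, 0% higher). Mature sequences are given from RefSeq (GRCm38.p6) with the seed in capitals, for this group because its members carry 3 different seeds and because mir-10a and mir-10b, which share a seed, hold most of its reads.
miR-10a-5p: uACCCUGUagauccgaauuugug
miR-10b-5p: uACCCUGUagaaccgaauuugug
miR-99b-5p: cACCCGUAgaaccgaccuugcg
miR-100-5p: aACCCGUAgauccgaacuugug
miR-125a-5p: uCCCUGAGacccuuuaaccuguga
miR-125b-5p: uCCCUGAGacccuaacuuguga

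Of the miRNA reads, the group took 64.5, 63.4 and 64.8% in CD sperm and 61.9, 61.4 and 59.3% in HFD sperm. Each HFD library lay below each CD library, and the means were 64.2 ± 0.719% and 60.9 ± 1.38% (SD, n = 3 each, exact permutation p = 0.1, adjusted p = 0.686 over 24 families). The difference is that of a share: the log2 ratio of the diets was -0.08 for the share, 0.0058 by RPM and -0.19 with TMM over the miRNAs. None of its 8 members separated the diets alone. mir-10b, from chr2:74726070-74726137 (+) within the Hoxd3 and Hoxd4 genes, took 44.3, 41.7 and 44.1% in CD sperm and 38.3, 43.0 and 38.7% in HFD sperm. Its HFD 2 value lay within the CD range. mir-10a, from chr11:96317165-96317274 (+) within Hoxb3, took 17.2, 18.8 and 18.5% in CD sperm and 20.5, 16.3 and 18.3% in HFD sperm, with HFD 1 highest. mir-99b, the third by reads, took 1.70, 1.54 and 1.14% in CD sperm and 1.68, 1.09 and 1.09% in HFD sperm.

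The other 23 families overlapped, and their exact p ranged from 0.2 upward. let-7, whose most-read members were let-7c-2, let-7c-1 and let-7f-2, took 3.45, 3.73 and 3.71% in CD sperm and 3.67, 3.80 and 4.01% in HFD sperm. The mir-23/mir-27/mir-24 family, led by mir-27b, mir-23a and mir-23b, took 1.01, 1.09 and 0.917% in CD sperm and 1.04, 1.28 and 1.55% in HFD sperm, with HFD 3 and HFD 2 above the CD range. The mir-148/mir-152 family, led by mir-148a, mir-148b and mir-152, took 3.76, 3.80 and 4.07% in CD sperm and 3.49, 4.62 and 5.29% in HFD sperm. The muscle miRNAs, led by mir-143, mir-145a and mir-133a-1, took 5.10, 4.27 and 3.36% in CD sperm and 3.07, 5.20 and 5.62% in HFD sperm, and the mir-200 family, led by mir-141, mir-200b and mir-200c, took 0.928, 1.06 and 0.932% in CD sperm and 0.895, 1.13 and 1.43% in HFD sperm. In these last 4 families HFD 3 was the highest and HFD 1 the lowest of the 3 HFD libraries. The erythroid miRNAs, led by mir-486a and mir-486b with nearly equal counts and then mir-451a, took 3.05, 2.62 and 3.45% in CD sperm and 5.06, 3.62 and 2.52% in HFD sperm, and the mir-17-92 group, led by mir-92a-1, mir-25 and mir-93, took 0.535, 0.739 and 0.570% in CD sperm and 0.866, 0.538 and 0.509% in HFD sperm. In both families HFD 1 was the highest of the 6 libraries. The mir-183/mir-96/mir-182, mir-181, mir-30, mir-26 and mir-21 families lay between 0.523% and 2.59% in every library.

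The immune family, led by mir-146b, mir-142a and mir-146a, took 0.669, 0.660 and 0.912% in CD sperm and 0.807, 0.850 and 0.804% in HFD sperm. The mir-15/mir-16 family took 0.324, 0.501 and 0.402% in CD sperm and 0.542, 0.394 and 0.435% in HFD sperm, and mir-199/mir-214 took 0.217, 0.211 and 0.164% in CD sperm and 0.196, 0.222 and 0.237% in HFD sperm. The mir-29, mir-130/mir-301, mir-103/mir-107, mir-221/mir-222, mir-322/mir-503/mir-450 and mir-297/mir-466/mir-467/mir-669 families each took at most 0.127% in every library. The last is a set of repeated hairpins with 61 tested members, of which 60 had a positive log2 fold change on the main scale and 40 under TMM. None had an unadjusted p under 0.05, and their median was 0.29 against 0.24 over all subclasses. The X-linked testis miRNAs, led by mir-871, mir-470 and mir-881, took 0.233, 0.887 and 0.365% in CD sperm and 0.427, 0.197 and 0.169% in HFD sperm. CD 2 was highest and HFD 1 lay above the other 2 CD libraries. With all libraries, the 17 tested members of this family each had a negative log2 fold change, under TMM and with all clean reads as library size too, from -1.07 to -0.21, but none had an unadjusted p under 0.05 on the main scale (a median of -0.44, and -0.63 under TMM). Without CD 2, 12 of the 17 were positive, with a median of 0.05. At the looser thresholds 2 were lower under TMM and 4 without CD 1, with 4 lower with DESeq2's own size factors and 3 without the filter on low counts. Without that filter mir-871 had an adjusted p of 0.0231. The mir-34/mir-449 family, which is abundant in maturing male germ cells, took 0.190, 0.345 and 0.295% in CD sperm and 0.213, 0.227 and 0.273% in HFD sperm. Its most-read members, mir-34c, mir-34b and mir-449a, overlapped. mir-449c, named after its values were seen, did not, with 2.47, 8.98 and 4.01 RPM in CD sperm and 1.65, 2.13 and 1.57 RPM in HFD sperm (log2 fold change -1.53, SE 0.44, adjusted p = 0.368). Its mean was 88.3 reads per library. CD 2 was the highest library, and without it the log2 fold change was -0.86. The adjusted p of mir-449c was 0.00214 without the filter on low counts and 0.00980 with DESeq2's own size factors. Its level was higher in TM4 cells, at 21.7 to 39.4 ppm, than in any sperm library, at 2.97 to 18.7 ppm, so this hairpin does not mark germ cells here.

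Single miRNA hairpins were described next. Mature sequences are given for those with the smallest p among the hairpins that did not overlap between the diets and had a mean of at least 100 reads. The sequence of mir-122 is not shown.
miR-142a-5p: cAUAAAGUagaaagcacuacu
miR-142a-3p: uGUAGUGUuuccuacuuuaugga
miR-451a: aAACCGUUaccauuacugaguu
miR-335-5p: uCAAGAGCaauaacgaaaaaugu
miR-9-5p: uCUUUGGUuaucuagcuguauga
miR-148b-3p: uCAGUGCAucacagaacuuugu
miR-7217-5p: aACUUGUAucuugugagacagaagg
miR-7217-3p: uGAGAACCcacaagcaagaaga

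mir-142a, a miRNA of blood-forming cells, lies at chr11:87756864-87756927 (+), where the annotation also has mir-142b. It had 269, 277 and 233 RPM in CD sperm and 590.5, 370.0 and 419 RPM in HFD sperm (log2 fold change 0.82, SE 0.24, adjusted p = 0.368 in edgeR), and HFD 1 was the highest library. The white blood cell miRNA with most reads, mir-146b, overlapped, at 5321, 5217 and 7839 ppm in CD sperm and 5893, 7107 and 6404 ppm in HFD sperm. mir-451a, a miRNA of red blood cells at chr11:78073170-78073241 (+), had 596, 762 and 929.9 RPM in CD sperm and 1212, 1156 and 980.0 RPM in HFD sperm (log2 fold change 0.55, SE 0.22, adjusted p = 0.438), with HFD 3 just above CD 3. The more abundant red blood cell miRNA mir-486a overlapped, at 14691, 12287 and 16233 ppm in CD sperm and 24088, 16937 and 11604 ppm in HFD sperm. mir-144, of the same cells and named after its values were seen, was the only 1 of the 4 red blood cell miRNAs that was higher at the looser thresholds, although its diets overlapped, with 52.3, 71.7 and 88.2 RPM in CD sperm and 75.2, 144 and 127 RPM in HFD sperm (log2 fold change 0.71, SE 0.30, adjusted p = 0.438). Under TMM its log2 fold change was 0.47. mir-122, the main miRNA of hepatocytes, had the largest positive log2 fold change of all tested subclasses, 1.53 (SE 0.36, adjusted p = 0.368), at a low level of 3.88, 1.98 and 2.78 RPM in CD sperm and 12.1, 7.64 and 5.35 RPM in HFD sperm. DESeq2 gave it an adjusted p of 0.0198 on the same library sizes. mir-468, which DESeq2 also called, had 4.95, 17.8 and 8.81 RPM in CD sperm and 5.06, 3.26 and 1.75 RPM in HFD sperm (log2 fold change -1.65, SE 0.49, adjusted p = 0.368 in edgeR), and a log2 fold change of -1.03 without CD 2.

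mir-335, which lies at chr6:30741299-30741396 (+) within the imprinted gene Mest, had 9.23, 9.74 and 9.31 RPM in CD sperm and 16.8, 12.5 and 14.3 RPM in HFD sperm (log2 fold change 0.63, SE 0.23, adjusted p = 0.373), and the 3 CD libraries were close together. The 3 copies of mir-9, on chromosomes 3, 13 and 7, share 1 mature sequence and were given nearly the same reads. mir-9-1 had 5.86, 9.44 and 11.1 RPM in CD sperm and 11.5, 15.5 and 15.6 RPM in HFD sperm (log2 fold change 0.69, SE 0.29, adjusted p = 0.438), with HFD 1 just above CD 3. mir-148b, at chr15:103285125-103285221 (+) within Copz1, had 43.7, 44.5 and 43.1 RPM in CD sperm and 58.7, 53.8 and 59.0 RPM in HFD sperm, a small difference with little spread (log2 fold change 0.38, SE 0.21, adjusted p = 0.501). As shares of miRNA reads, 10 of the 257 miRNAs with a mean of at least 100 reads were higher on the HFD without overlap (3.89%) and 3 were lower (1.17%). The 10 comprised mir-122, mir-142a, mir-335 and mir-148b, whereas mir-451a and mir-9 overlapped on that scale. The others, named after their values were seen, were mir-186, mir-187, mir-421, mir-423, mir-674 and mir-744, and the 3 lower ones were mir-7217, mir-196b and mir-222.

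Of the hairpins with a mean of at least 100 reads, mir-7217, at chr17:27355738-27355799 (+), was the only hairpin lower by RPM on the HFD without overlap, with 37.8, 112 and 38.7 RPM in CD sperm and 30.7, 11.03 and 8.07 RPM in HFD sperm (log2 fold change -1.92, SE 0.56, adjusted p = 0.368). The log2 fold change was -1.20 without CD 2 and -2.72 without HFD 1. CD 2 was far above the other CD libraries, HFD 1 lay just below CD 1, and no read was counted in TM4 cells. DESeq2's adjusted p was 0.0198 on the same library sizes. The hairpins numbered near mir-7217 were listed after their values were seen. Of the 16 tested hairpins from mir-7210 to mir-7243, 12 were lower at the looser thresholds, 3 of them without overlap, beside 2.72% and 1.09% of all subclasses. Without CD 2 the number lower was 5, and it was 8 without HFD 2 and without HFD 3. The list had a median log2 fold change of -1.58, and of -0.80 without CD 2, and its other hairpins had too few reads to be tested. mir-7210 had 9.23, 44.5 and 21.4 RPM in CD sperm and 11.6, 8.42 and 5.42 RPM in HFD sperm, and mir-7242 had 2.66, 12.1 and 4.33 RPM in CD sperm and 2.91, 0.955 and 0.714 RPM in HFD sperm. Without CD 2 the log2 fold changes were -0.85 for mir-7210 and -1.19 for mir-7242, and without HFD 1 they were -1.85 and -2.93. CD 2 also had the highest and CD 1 the lowest sum of the germ cell list. The part of germ cell RNA in these values was not tested.

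**Figure D5:**
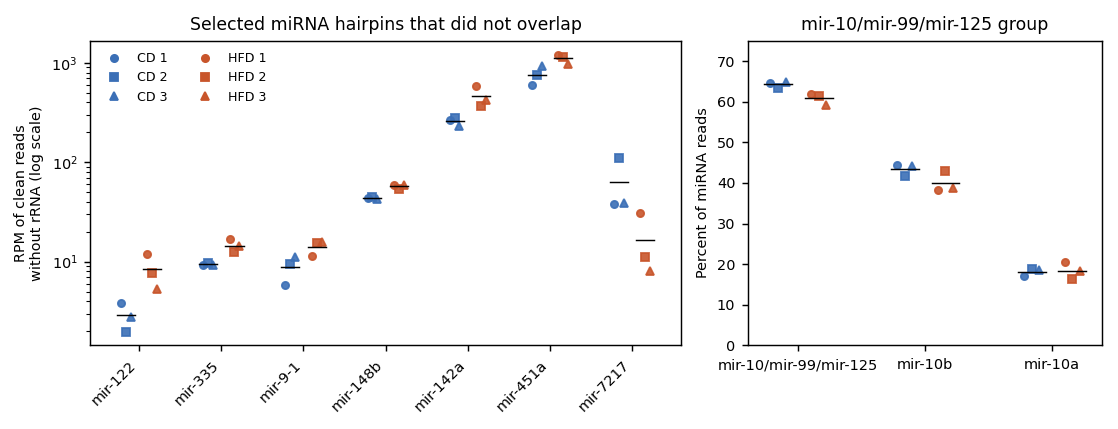
Left, RPM on a log scale of the hairpins with the smallest p among those whose diets did not overlap, in the CD (blue) and HFD (orange) libraries, with bars at the means; mir-7217 is lower on the HFD and the others higher. Right, percentage of miRNA reads in the mir-10/mir-99/mir-125 group and its members mir-10b and mir-10a, of which only the whole group separates the diets (64.2% against 60.9%).

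Of the 23 other Ensembl and Rfam classes, 2 were higher on the HFD without overlap and 0 lower, beside 15.7% and 1.09% of all subclasses, and none was past the looser thresholds. snoRNAs, which guide the modification of rRNA, had 8641, 10467 and 9891 RPM in CD sperm and 10368, 8432 and 10015 RPM in HFD sperm. lincRNAs had 5618, 9809 and 6202 RPM in CD sperm and 6850, 5308 and 5453 RPM in HFD sperm, with CD 2 highest, and snRNAs, the RNAs of the spliceosome, had 3085, 4247 and 4399 RPM in CD sperm and 3972, 3423 and 5140 RPM in HFD sperm. The 3 smallest p among these classes, Y RNAs, piRNAs and tRNA precursors together belonged to the other RNAs of Rfam (log2 fold change 0.74, SE 0.34, adjusted p = 0.476), the precursor of the tRNA Leu-CAA (log2 fold change 0.61, SE 0.34, adjusted p = 0.501) and the ribozymes (log2 fold change 0.33, SE 0.22, adjusted p = 0.569), and of these only the ribozymes did not overlap, with 35.9, 36.6 and 31.0 RPM in CD sperm and 40.0, 46.4 and 43.6 RPM in HFD sperm. The other class without overlap, the gene regions of Rfam, named after its values were seen, had 0.517, 0.591 and 0.541 RPM in CD sperm and 0.754, 0.608 and 0.892 RPM in HFD sperm. Y RNAs had 1232, 1458 and 1311 RPM in CD sperm and 1183, 923 and 1452 RPM in HFD sperm. Reads annotated as piRNAs, RNAs that silence transposons in germ cells, had 199483, 254452 and 212282 RPM in CD sperm and 214370, 196854 and 190904 RPM in HFD sperm, with CD 2 highest. The TM4 Sertoli cell line had 193498 to 234249 RPM of reads with this annotation, a similar level. The annotation alone therefore does not mark germ cell RNA, and the origin of these reads was not tested. Precursor tRNAs were at the lowest level of the classes, with 4.32, 4.81 and 3.18 RPM in CD sperm and 4.45, 5.25 and 5.89 RPM in HFD sperm. miRNAs in all had 516236, 481401 and 480884 RPM in CD sperm and 500852, 537642 and 529032 RPM in HFD sperm, with CD 1 inside the HFD range (exact permutation p = 0.2), and none of the 8 class totals had a smaller exact p than 0.2.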

How the data were processed

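Small RNA libraries of epididymal sperm were made by the authors with TRIzol and the TruSeq Small RNA kit and sequenced on a NextSeq 500. By the study's methods, reads were trimmed with Trimmomatic 0.40 after FastQC 0.12.0, and reads of 15 to 45 nt were annotated with SPORTS1.1 at 1 mismatch. The processing notes name mm10. The authors deposited estimated counts per subclass, not normalized, in which a read that matches several subclasses is divided among them. RPM therefore moves with the division and with the order of the databases.

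Genome-matched and unmatched reads were added, and counts were rounded for edgeR 4.0.16 (quasi-likelihood test, R 4.3.3), with clean reads without rRNA as library size, no further scaling, and Benjamini-Hochberg adjustment over all 734 subclasses. Library sizes were 23030602 to 28018533 reads. Shares and totals were compared by exact 2-sided permutation tests over all splits (numpy 2.4.6), adjusted within each family of shares. DESeq2 1.42.0, TMM, other library sizes, filters and denominators, genome-matched reads alone, a replicate block and leaving out each library were the alternatives. In simulated data 98% of 199 subclasses changed by 2 on the log2 scale were recovered among 724, with 5 false calls. Those counts were drawn independently for each subclass, and the median log2 fold change of the data was only 0.24. The recovery therefore cannot be read as the share of real changes found. In the data mir-7242, with a log2 fold change of -2.05, had an adjusted p of 0.368 in edgeR. Replicates of a diet differed by more than counting noise (chi-square per degree of freedom 696 to 2405). Members and lists were chosen with earlier results of these data known. Named were all class totals, rRNAs and miRNA families, with the 3 most-read members for most families given with their own shares, the 5 most-read and 5 smallest-p mitochondrial and CCA fragments, the 8 smallest-p miRNAs in each direction without overlap at a mean of at least 100 reads, and the 3 most-read and 3 smallest-p other classes. The TM4 cell libraries served only as a reference for markers, for single miRNAs and for the reads annotated as piRNAs. PCR copies were not told apart from molecules.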

Additional observations from a re-analysis of the deposited data

How the results depend on the processing

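The log2 fold change was positive for 80.2% of the tested subclasses on the main scale, 52.5% under TMM, 66.1% with all clean reads and 71.7% with class reads as library size. The number of subclasses past an adjusted p of 0.05, 0 in edgeR, was 4 with DESeq2 on the same library sizes, 14 with its own size factors, 23 without the filter (1324 tested) and 0 to 7 with a library left out. The number with an unadjusted p under 0.05, 81, was 39 with the reads of the same class as library size, 53 with DESeq2's size factors, 135 without the filter, 49 with at least 100 reads and 48 to 141 with a library left out. The number higher at the looser thresholds, 55, was 15 under TMM, 23 with all clean reads, 18 with class reads, 13 with DESeq2's size factors, 90 without the filter and 23 to 100 with a library left out. The number lower, 20, was 31 without the filter, 5 with at least 100 reads and 10 to 26 with a library left out.

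Replicate numbers did not pair the samples, since the deviations of same-numbered libraries correlated at -0.25, -0.08 and 0.14 and not every library correlated best with its own number. With the replicate number as a block, 18 subclasses passed an adjusted p of 0.05, and 58 were higher and 22 lower at the looser thresholds. Of the subclasses with values in the report, mir-122, mir-449c, mir-468, mir-7210, mir-7217, mir-7242, 18S and the 3′ ends without CCA of Gln-CTG and Gln-TTG passed then. Under the block, 6 mitochondrial tRNA fragments in place of 10 and 2 cytosolic CCA ends in place of 3 were higher at the looser thresholds, and 2 X-linked testis miRNAs in place of 0 were lower. Positive log2 fold changes numbered 48 of 49 for the cytosolic CCA ends and 59 of 64 for the mitochondrial fragments.

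Log2 fold changes that changed sign are given in the order TMM, all clean reads, class reads and DESeq2's size factors where each applies. Mitochondrial Val-TAC CCA ends came to -0.11, -0.027, -0.094 and -0.10. Ala-TGC CCA ends came to -0.10, -0.028 and -0.11 (no change of sign with class reads), and snRNAs to -0.14, -0.041 and -0.14. Under TMM, class reads and DESeq2's size factors, internal Val-TAC fragments came to -0.020, -0.016 and -0.0097, Ser-GCT 5′ fragments to -0.063, -0.088 and -0.046, and internal His-GTG fragments to -0.094, -0.085 and -0.081. Ala-AGC CCA ends came to -0.029 under TMM and -0.036 with DESeq2's size factors. With rRNA reads as library size, 12S came to -0.18, 16S to -0.32, 28S to -0.039, 4.5S to -0.25, 45S to -0.088, 5.8S to -0.22 and 5S to -0.12. Leaving out a library gave -0.044 to 0.42 for Ser-GCT 5′ fragments, -0.28 to 0.049 for internal Gly-TCC fragments, -0.29 to 0.33 for Ala-TGC and -0.27 to 0.39 for Ala-AGC CCA ends, -0.084 to 0.076 for snoRNAs and -0.081 to 0.22 for snRNAs.

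Log2 ratios of shares moved with the denominator. Without rRNA and over all clean reads, 18S came to 0.76 and 0.62, 28S to 0.50 and 0.36 and 5.8S to 0.30 and 0.17. The cytosolic CCA ends came to -0.25 over the 3′ fragments and to 0.36 over clean reads without rRNA. The mitochondrial CCA ends, 0.06 over the 3′ fragments, came to 0.28 over clean reads without rRNA, to 0.0028 with a fixed mix of tRNAs and to 0.43 with genome-matched reads alone. The mir-10/mir-99/mir-125 group came to 0.0058 by RPM and -0.19 with TMM over miRNAs. The causes of these changes were not tested beyond the change of denominator. With 3 pools a diet, no exact test could pass 0.05, and subclasses near 10 reads per library were measured with little precision.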

Other observations

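The position of fragments within mitochondrial tRNAs did not separate the diets. Of the mitochondrial tRNA reads, internal fragments made up 63.2, 57.8 and 56.5% in CD sperm and 60.2, 58.6 and 62.4% in HFD sperm (exact permutation p = 0.7). The 5′ fragments, for the most part those of Ser-GCT, made up 23.3, 27.1 and 27.5% in CD sperm and 20.2, 28 and 25.01% in HFD sperm, with HFD 1 lowest (exact permutation p = 0.7). CCA ends made up 8.34, 9.29 and 9.99% in CD sperm and 12.8, 8.69 and 7.996% in HFD sperm, with HFD 1 highest, and 3′ ends without CCA made up 5.19, 5.79 and 6.04% in CD sperm and 6.82, 4.66 and 4.62% in HFD sperm. HFD 1 had the fewest 5′ and the most 3′-terminal fragments of the 6 libraries, and it was also the library in which 18S took the largest share of rRNA reads. All 4 kinds of fragment had an adjusted p of 0.9 over the 4, and no cause was tested.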
